A study of Drosophila melanogaster with 12 samples.

Results

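Broad domains shared by Scalloped (Sd) and Nerfin-1 were defined as distinct Sd DamID peaks of 3000 bp or more that overlapped a Nerfin-1 peak by at least 1 bp. Of 4064 distinct Sd peaks, 461 met this rule; 66.6% of all Sd peaks, of any length, overlapped a Nerfin-1 peak. They held 2202 kb, 33.6% of all sequence in Sd peaks. The domains were chosen by the length of the Sd peak and its overlap with Nerfin-1, so both are given below as a description only.

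Sd is the DNA-binding protein of the TEAD family through which the Hippo pathway coactivator Yorkie acts, and Nerfin-1 is a zinc-finger factor of young neurons. In the optic lobe, loss of either has been linked to neurons that revert towards a progenitor state. DamID reads where a fusion protein has been by the adenine methylation that its Dam part leaves at GATC sites nearby. A broad peak can span several binding sites. How neighbouring fragments were merged into peaks is not stated, and the lengths used here depend on it.

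All animals were larvae of the third instar that had begun to wander, and the tissue was the CNS. For DamID, 2 samples each carried Dam alone (p[pUAST-LT3-Dam]), Dam-Sd (p[pUAST-LT3-Dam-Sd]) or Dam-Nerfin-1 (p[pUAST-LT3-Dam-Nerfin-1]) at attP2, so the design has the same Dam-only controls for both fusion proteins. The 3 genotypes shared tubGal80TS, GMR31H08-Gal4 and UAS-GFP. Eggs were laid at 25°C and kept at 18°C for 4 days, and 24 hours at 29°C then released the driver. The design aims Dam at the cells of this driver, and expression elsewhere or earlier was not measured here. For ATAC-seq, which marks open chromatin, and for RNA-seq, 3 samples each held GFP-positive cells sorted from animals with P[nerfin-1.GFP-NLS.SV-40], which has the suffix iA in the labels, and reared at 25°C. The RNA samples were pools of sorts, so their spread is that between pools. The DamID cells and the sorted cells were chosen in different ways, and the comparison of binding with ATAC or RNA crosses that difference.

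Peak lists were available as 1 list per group with no height and no value per replicate, so no difference between domains carries a test of replicate error. Binomial intervals below cover counting error only, and neighbouring regions are not independent. The RNA table listed 5135 genes with 43555895 to 57468071 counts per library (S1 to S3), and a gene that is not listed cannot be called silent. In the sorted cells 6 of 7 neuron markers were listed, with summed levels of 6365 to 6691 counts per 1000000 listed counts (CPM); the one not listed was Rbp9. Of other cells' markers, 1 of 5 neuroblast genes (ase, 31.6 to 58.2 CPM), 1 of 6 glial genes (gcm, 22.1 to 41.9 CPM), 1 of 4 hemocyte genes (Pxn, 112 to 143 CPM) and 0 of 4 muscle genes were listed, and repo, dpn and Mhc were among those not listed. Of the longer lists used further on, 2 of 12 glial, 3 of 8 hemocyte and 1 of 9 muscle genes were listed. In the longer list of neuroblast and progenitor factors 6 of 15 were listed, among them pros, brat, erm and opa. The part of such cells in the results was not tested.

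The domains ranged from 3009 to 22597 bp with a median of 4082 bp (quartiles 3419 and 5395 bp). There were 131 of 5000 bp or more and 12 of 10 kb or more. Just inside the length minimum lay domains of 3009, 3010, 3011, 3013 and 3016 bp, the first at imd and Dp1 and the fourth in svp, the gene of a nuclear receptor. Just outside lay shared peaks of 2999, 2984, 2976, 2976 and 2973 bp, so the minimum does not fall in a gap of the length distribution. The domains made up 8.62% of Sd peaks on chromosome 4 (5 of 58), 9.91% on X and 11.1% to 12.5% on 2L, 2R, 3L and 3R.

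The longest domain lay within Mnt, which encodes a partner of Max that opposes Myc. It ran over 22597 bp of X (3673511 to 3696107, dm6), but the single Nerfin-1 peak in it covered only 7.54% of it. It also held 16 ATAC peaks, the most of any domain. The next was a domain of 17143 bp within CadN (2L, 17738724 to 17755866), the gene of the adhesion molecule N-cadherin, of which Nerfin-1 covered 45.6%. Next in length, a domain of 15432 bp on 2R (13328893 to 13344324) overlapped no protein-coding gene. It contained the microRNA gene mir-184 (13329402 to 13329501), and Nerfin-1 covered 98.0% of it with 2 peaks. These 3 thus differed widely in how much of an Sd domain was also bound by Nerfin-1.

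The remaining 17 of the 20 longest lay at genes of several kinds. Ten-m, which encodes a teneurin of synaptic partner matching, held a domain of 12822 bp (51.9% covered by Nerfin-1) and a second of 3366 bp. A domain of 11690 bp (64.9% covered, 8 ATAC peaks) overlapped Pdk1, a kinase of insulin signalling, and 1 of 9622 bp overlapped Raf, the MAP kinase kinase kinase. Domains of 8825 to 14241 bp lay at genes of transcription and chromatin factors. These were sbb (96.4% covered), erm (92.0%), Sin3A with its neighbour Amph (95.8%), tou (85.9%), SoxN (65.1%), jing (44.6%) and chinmo (35.5%). Sin3A encodes the scaffold of a histone deacetylase corepressor, erm a zinc-finger factor that keeps intermediate progenitors from reverting, SoxN a SoxB factor of the early nervous system and chinmo a BTB zinc-finger factor of neuronal birth order. A domain of 14229 bp with 15.7% cover lay 3336 bp from shg, the gene of E-cadherin. The others were at CG2217 and CG42740, CG14762, gukh, Ctps and CG45071, CG10195, and 5081 bp from Obp56g.

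**Figure D1:**
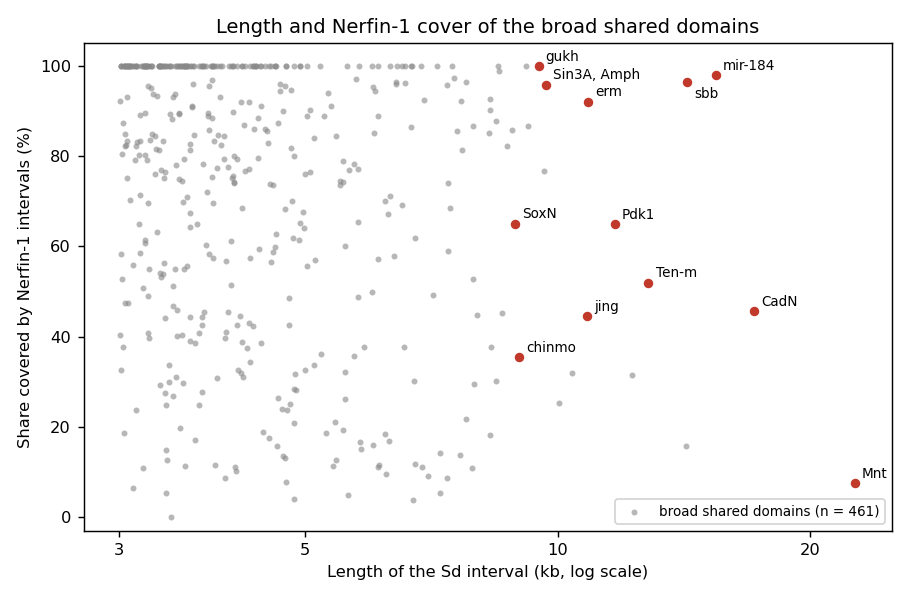
Each point is 1 of the 461 broad shared domains, placed by the length of the Sd interval (kb, log scale) and by the percentage of it that Nerfin-1 intervals cover; red points are labelled with a gene at the domain. Full cover is found up to the domain of 9484 bp in gukh, and the longest domain, at Mnt, has 7.54% cover.

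Nerfin-1 covered a median of 80.1% of a domain (quartiles 45.4% and 100%) and 67.7% of all domain sequence. Cover was complete for 129 domains, of which 118 had the same boundaries in both lists, and it was at least 50% for 334. At the low end, 13 domains had under 10% cover, among them those at Mnt, at the second numb domain (8.65%), at the planar polarity gene pk (5.31%) and at the kinase gene Nuak (9.10%). At Corin the overlap was 0.087% of 3458 bp, so this domain is a member by a few bases. A single Nerfin-1 peak met the domain in 433 cases and 2 peaks did in 28. The Nerfin-1 peaks stayed within the Sd boundaries in 426 domains. Both edges coincided with Nerfin-1 edges in 132 domains, 1 edge in 226 and none in 103. DamID reads at GATC sites, so edges of both lists may fall on the same sites, which was not checked. Shared boundaries therefore do not show that both proteins bind over exactly the same extent.

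Some genes carried several domains. Of 662 protein-coding genes with a domain at the gene or within 1 kb, 36 had 2 or more, and erm and l(3)neo38 had 3. The erm domains measured 3144, 4624 and 10878 bp (2L, 1947545 to 1974583), and the middle one had 15.7% Nerfin-1 cover against 82.3% and 92.0% for the others. In brat, whose product restrains neuroblast self-renewal, domains of 6019 and 8583 bp were 95 bp apart. In Syp, which encodes an RNA-binding protein of late neuroblasts, domains of 3463 and 6678 bp were only 14 bp apart. A gap of 500 bp or less to the next Sd peak was found for 52 domains (11.3%), against 6.23% of shared peaks under 3000 bp and 6.37% of all Sd peaks. Myc, the growth regulator that Mnt opposes, had domains of 4333 and 7376 bp (X, 3370695 to 3383221) with 100% and 95.7% cover. Myc was not listed in the RNA table, while the 3 values of Mnt were 252 (S1), 239 (S2) and 212 (S3) CPM; Myc was chosen after its values were seen.

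Both fusion proteins' own genes held a domain. At nerfin-1 it spanned 6101 bp (3L, 910066 to 916166) with 57.1% Nerfin-1 cover, and in sd it spanned 4821 bp (X, 15811590 to 15816410) with 70.1% cover. The transgenes carry coding sequence of these genes, and their part in the 2 domains was not tested. The RNA of nerfin-1 was highest in S1 (2486 CPM, against 1952 in S2 and 1773 in S3), and that of sd was 377, 416 and 385 CPM, close in all 3.

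Almost every domain held open chromatin. An ATAC peak overlapped 455 of 461 (98.7%, 95% Wilson interval 97.2 to 99.4), against 76.8% of all Sd peaks. A longer interval has more room to meet an ATAC peak, and no comparison here isolates length. Of the 36 Sd peaks of 3000 bp or more without Nerfin-1, 35 (97.2%, 85.8 to 99.5) also overlapped one. The count is thus close to that of other broad Sd peaks. A domain held a median of 2 ATAC peaks. There were 119 domains with 1, 165 with 2, 104 with 3 and 67 with 4 or more. After Mnt, the most were found at Pdk1 (8) and at the domains near shg, in Ten-m and at CG2217 (7 each).

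Open chromatin filled only part of a domain. ATAC peaks covered 34.5% of the domain sequence, less than the 44.1% of shared peaks under 3000 bp and near the 31.3% of broad Sd peaks without Nerfin-1. The centre base lay in an ATAC peak in 42.7% of domains (38.3 to 47.3), in 51.3% of the shorter shared peaks (49.2 to 53.3) and in 33.3% (20.2 to 49.7) of the 36 others. Cover fell with length, from 39.8% in the 221 domains under 4 kb to 28.3% in the 54 of 7 kb or more. It was 26.7% in the 54 domains with under 25% Nerfin-1 cover and 41.5% in the 129 with full cover; the latter were also shorter, with median lengths of 5075.5 and 3611 bp. ATAC peaks numbered 0.49 per kb of domain against 0.72 per kb of shorter shared peaks. For Sd peaks without Nerfin-1 the values were similar, 0.50 per kb in broad and 0.78 per kb in shorter ones. An ATAC peak that crosses an edge counts in full, which raises the number per kb more in short intervals. ATAC peaks at domains had a median length of 608 bp, between the 733 bp at shorter shared peaks and the 426 bp of those without an Sd peak. These sets were formed by overlap, and a longer ATAC peak has more room to meet an Sd peak. How far this accounts for the order was not tested. The highest cover was found at arm and Ldaf1 (88.7%), the former encoding beta-catenin, and at the ferritin genes Fer1HCH and Fer2LCH (87.8%). Both of these domains were fully covered by Nerfin-1.

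Across the domain edges the ATAC cover changed over about 1 kb. It was 13.2% at 1000 to 2000 bp outside the edge and 12.7% in the first 1000 bp outside. Inside, it was 24.2% in the first 500 bp and 40.4% from 500 to 1500 bp. The broad Sd peaks without Nerfin-1 went from 19.4% in the first 1000 bp outside to 34.1% at 500 to 1500 bp inside. With 36 peaks their curve is uneven, and the difference between the 2 sets was not tested.

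**Figure D2:**
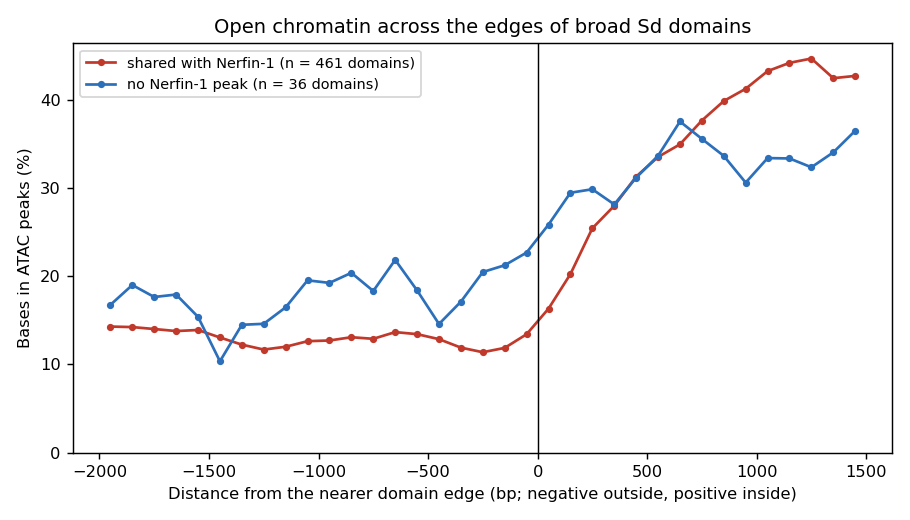
The percentage of bases in ATAC peaks is plotted in bins of 100 bp against the distance from the domain edge, with both edges pooled; negative distances lie outside. The red curve (461 domains shared with Nerfin-1) stays near 13% outside and reaches 40.4% on average at 500 to 1500 bp inside, and the blue curve (36 domains without Nerfin-1) starts higher and ends lower.

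Within the domains, ATAC cover was higher in the part shared with Nerfin-1 than in the part with Sd alone. ATAC peaks covered 39.5% of the 1491 kb with Nerfin-1 and 23.9% of the 710 kb without it. In 267 domains both parts were at least 500 bp long; ATAC cover was higher in the Nerfin-1 part in 183, lower in 79 and equal in 5, with medians of 37.8% and 17.5%. ATAC cover is also lower near domain edges (with each domain cut into 3 equal parts, 33.0% to 34.3% in the outer parts and 40.8% in the middle one on average). The 267 domains include 158 whose single Nerfin-1 peak shared exactly 1 edge, so that each part held 1 end of the domain. In these 158 the values were 37.2% with Nerfin-1 and 23.4% without. The Nerfin-1 part was higher in 108 of them and lower in 48. The parts were not matched for length, and a shorter part lies nearer to an edge on average. How far edges account for the difference was therefore not tested.

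Single genes went either way. In CadN the Nerfin-1 part had 36.7% ATAC cover and the rest 9.78%, and at CG14762 the values were 61.8% and 19.9%. In sli, which encodes the midline repellent Slit, the Nerfin-1 part of 1149 bp was at 85.9% and the rest at 0%. These values rest on the position of 1 ATAC peak, the only one in that domain. At Mnt the order was reversed, with 12.6% in the short Nerfin-1 part and 34.6% in the 20894 bp with Sd alone. The larger brat domain (19.8% and 49.0%), chinmo (14.0% and 35.1%) and the Slit receptor gene robo3 (0% and 26.5%) also had more ATAC cover outside the Nerfin-1 part. At robo3 that part was only 855 bp long.

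**Figure D3:**
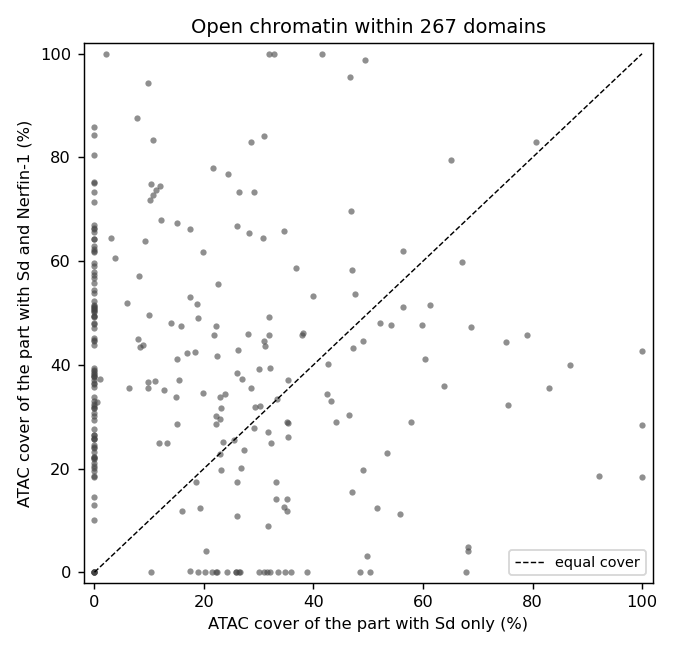
Each point is 1 of the 267 domains with at least 500 bp both with and without Nerfin-1; the axes give the percentage of bases in ATAC peaks in each part and the dashed line marks equal cover. More points lie above the line (183) than below it (79), and many lie at 0 on the axis for Sd alone.

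No ATAC peak was found in 6 domains. The shortest, of 3017 bp on 2R (20582778 to 20585794), had the same boundaries in both lists, reached into qsm and contained 7 microRNA genes, mir-310, mir-311, mir-312, mir-313, mir-2498, mir-991 and mir-992. The others lay at CG34056, CG34057 and mat (6240 bp), at hng3 (6013 bp), 1245 bp from CG13894 (4082 bp), 7675 bp from Oli (3243 bp) and at mim and CheB42c (3143 bp). Nerfin-1 cover of these 5 was 9.65% to 51.5%.

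The gene annotation gave gene spans without strand, exons or UTRs, so positions are stated against whole genes. Of the domains, 162 (35.1%) lay within a single protein-coding gene, 160 (34.7%) overlapped 2 or more and 70 (15.2%) overlapped none. For shorter shared peaks these shares were 42.6%, 30.8% and 15.6%. For the 36 broad Sd peaks without Nerfin-1 they were 44.4%, 5.56% and 38.9%. A whole protein-coding gene fitted into 41 domains (8.89%, against 2.18% of shorter shared peaks, which have less room for one). It fitted into 0 of the 36 broad Sd peaks without Nerfin-1. These differences were not tested. The 45 genes wholly inside a domain had a median length of 1024 bp, and 19 of them were listed as expressed. The largest were galectin (4455 bp), CG6044 (4364 bp) and miple1 (3038 bp), which encodes a midkine-like secreted factor and stood at 769 ± 33.0 CPM (SD, n = 3).

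In 19 domains the nearest protein-coding gene was more than 5 kb away. They include a domain 6615 bp from the Hox gene Scr, 1 of 6754 bp that held 4 tRNA genes 12802 bp from caps, and 1 of 3346 bp that lay 19303 bp from mid. Most of the 19 overlapped a long non-coding RNA (lncRNA) gene. Domains overlapped 121 of 1959 lncRNA genes (6.18%), 18 of 260 microRNA genes (6.92%) and 561 of 13922 protein-coding genes (4.03%). The 18 microRNA genes fell into 10 domains. Besides mir-184 and the mir-310 group they include mir-275 and mir-305 in a domain of 5368 bp on 2L, mir-1000 in 1 of 6435 bp on 3R that Nerfin-1 covered fully, and mir-2c and mir-13a in 1 of 3403 bp on 3R with 81.7% ATAC cover. mir-276a lay in a domain of 3140 bp (3L, 10362320 to 10365459) inside the span of lncRNA:CR46006. The level of that lncRNA was 315 CPM in S1, well above the 137 in S2 and 146 in S3.

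The domains were then set against lists of genes by function. Over all protein-coding genes 4.76% had a domain at the gene or within 1 kb (662 of 13922), and this share was 2.0% in the shortest 10% of genes and 15.9% in the longest 10%. Each list is therefore given beside the share over all coding genes of the same lengths, as a description without a test. The lists and their members were chosen with earlier results of these data known, which may raise their shares. Any Sd peak was far more common, at 35.6% of coding genes.

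Notch pathway components had a domain at 6 of 12 genes (50%, against 12.2% at their lengths). Both ligand genes were among them, Delta (domain of 4805 bp, 81.9% Nerfin-1 cover) and Ser (3235 bp, 79.2%). So were neur, which encodes a ubiquitin ligase that activates the ligands, kuz, the receptor-cleaving protease, and mam, the nuclear coactivator. The Notch inhibitor gene numb held domains of 6918 bp with 92.4% cover and 7384 bp with 8.65% cover, in the same gene. N, Su(H), H, fng, Psn and mib1 had none. The E(spl) complex holds direct targets of Notch, and 5 of its 12 genes had a domain (41.7%, against 2.51%). These rested on only 2 domains, 1 of 4152 bp at E(spl)malpha-BFM, Kaz-m1 and E(spl)m2-BFM and 1 of 3287 bp at E(spl)m6-BFM and E(spl)m7-HLH.

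Neuroblast and progenitor factors had a domain at 7 of 15 genes (46.7%, against 9.02%): insc, klu, brat, pros, erm, btd and opa. The domain at pros, whose product ends progenitor divisions, was 4708 bp long with 90.0% of it in Nerfin-1 peaks. Temporal factors, which progenitors express in sequence, had one at 8 of 22 (36.4%, against 11.7%), namely ey, hbn, opa, erm, Imp, Syp, chinmo and svp. Imp and Syp encode RNA-binding proteins with opposite time courses in neuroblasts; their domains had 86.5% to 100% cover. Medulla and optic lobe identity factors had one at 5 of 21 (23.8%, against 12.6%), including the homeobox genes bsh, Rx and toy. erm and opa count in both of the first 2 lists.

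Axon guidance and adhesion genes had a domain at 10 of 24 (41.7%, against 14.9%). Ligand genes were sli, NetB and Sema1a and receptor or adhesion genes were robo3, Dscam1, CadN, Nrg, fz and Ten-m; ena encodes an actin regulator of growth cones. Nerfin-1 cover ranged from 10.8% at robo3 to 100% at Dscam1 and ena. The immunoglobulin recognition and Beat-Side genes, which are longer still, had one at 3 of 18 (16.7%, against 15.9%), DIP-alpha, dpr12 and beat-IIa, a share near that of other long genes. Pan-neuronal genes had one at 4 of 14 (28.6%, against 11.9%): elav with 6681 bp and 100% cover, cac, Appl and fne. elav and fne encode neuronal RNA-binding proteins, cac a calcium channel subunit and Appl the amyloid precursor homologue.

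Chromatin regulators and corepressors had one at 5 of 18 (27.8%, against 10.5%): osa with 2, Sin3A, sbb, Bicra and tna. osa encodes a subunit of the Brahma remodelling complex, and its domains of 5321 and 7923 bp had 93.9% and 86.7% cover. The ecdysone list (EcR with 2 and Hr4, 2 of 12, 16.7% against 14.9%) and the Hippo list (wts and sd, 2 of 15, 13.3% against 10.8%) lay near the shares at their lengths. In the Hippo list the gene of the Yorkie-inhibiting kinase, wts, had a domain of 3092 bp with full cover and 8.31% ATAC cover, while yki, hpo, ex and kibra had none. Of markers of other cells, 0 of 12 glial genes (against 6.01% at their lengths) and 0 of 8 hemocyte genes (against 7.76%) had a domain. With so few genes these counts lie near the background. An Sd peak of some length was present at 9 glial genes (75%) and 3 hemocyte genes (37.5%), against 35.6% of all coding genes. In the neuroblast and progenitor list this share was 73.3%, and in the guidance list 95.8%. The 1 of 9 muscle genes (11.1%, against 9.75%), Act57B, counted through a domain 364 bp away, which also lay 443 bp from hbn.

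**Figure D4:**
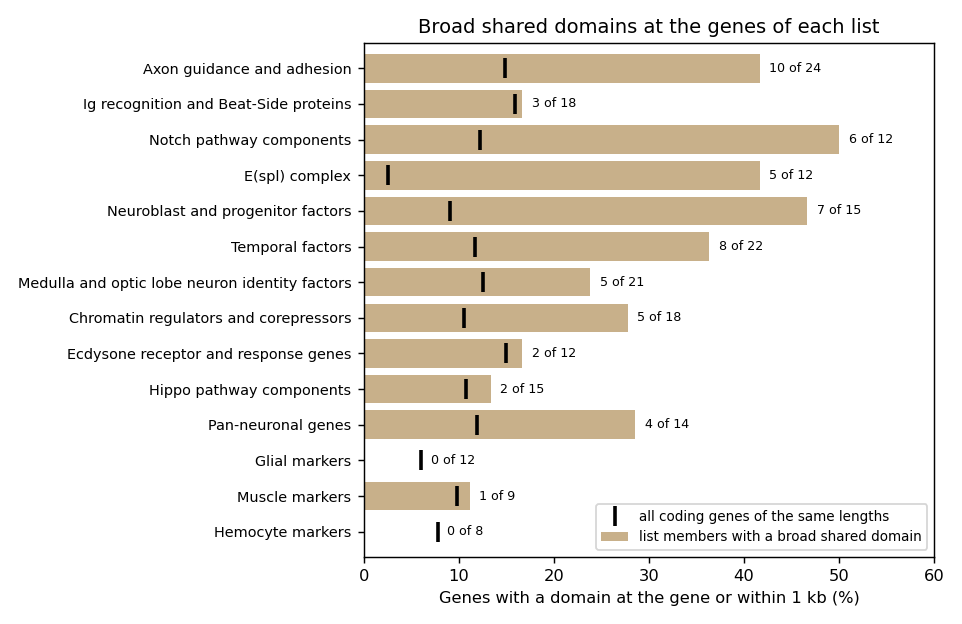
Bars give the percentage of each list's genes with a broad shared domain at the gene or within 1 kb, with the counts beside them; black ticks give the same percentage over all protein-coding genes of the same lengths. The bars for the Notch, E(spl), neuroblast, guidance and temporal lists reach 36.4% to 50%, and those for glial and hemocyte markers are at 0.

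Genes at the domains were listed as expressed in the sorted cells more often than coding genes at large. The table listed 418 of 662 (63.1%, 59.4 to 66.7), against 35.5% of all protein-coding genes. Domain genes are longer (median 6215.5 bp against 2163 bp), and all coding genes weighted to the same lengths were listed in 42.0%. Genes with only shorter shared peaks were listed in 57.0% (55.2 to 58.7), or 57.2% at the same lengths. The difference between the 2 kinds was not tested. With no flank around the gene the share was 67.6%, and with 5 kb it was 54.3%.

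At 321 domains at least 1 gene within 1 kb was listed, at 83 none of the genes was, and 57 had no gene there. ATAC cover was 36.2%, 29.5% and 31.5% of sequence in these 3 sets. Among the genes with a domain that were not listed were the progenitor genes insc, klu and btd, the Notch ligand genes Delta and Ser, the identity factor gene tj, the recognition gene DIP-alpha, and Myc. Other genes of the same lists were listed. In the neuroblast and progenitor list these were 4 of the 7 with a domain (brat, pros, erm and opa). In the Notch list they were 4 of 6 (neur, numb, mam and kuz). For lola, sbb and Imp the identifier has changed and no value could be looked up.

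RNA of the listed genes at domains mostly varied little between the 3 libraries, though some named genes, such as nerfin-1 and opa, varied more. The median coefficient of variation was 5.79% over listed domain genes and 5.91% over all listed protein-coding genes. Transcript lengths were not used here, so levels are not compared between genes. For pros the values were 10830 (S1), 12380 (S2) and 10040 (S3) CPM, and for brat 4552, 4422 and 3817 CPM. CadN stood at 2241, 2054 and 1764 CPM, and elav at 1748, 1786 and 1685 CPM, which is nearly level.

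Some genes were set apart in S1. The level of erm was 182 CPM in S1 against 145 and 141 in S2 and S3, and that of SoxN was 664 against 548 and 534. For mam it was 961 against 792 and 756. Lower in S1 were opa (54.6 against 79.6 and 76.3) and Rx (74.6 against 94.4 and 97.8). Conversely, wts (106, 106 and 104 CPM) and Pdk1 (159, 160 and 159 CPM) were level. Other named genes, such as chinmo, Sema1a and Mnt, were also highest in S1, so this order is not particular to the genes above. The edgeR scaling factors were 0.964 (S1), 0.994 (S2) and 1.044 (S3), and whether the shifts are general to a library was not tested. With 1 library on each such side and a single group, no test applies.

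**Figure D5:**
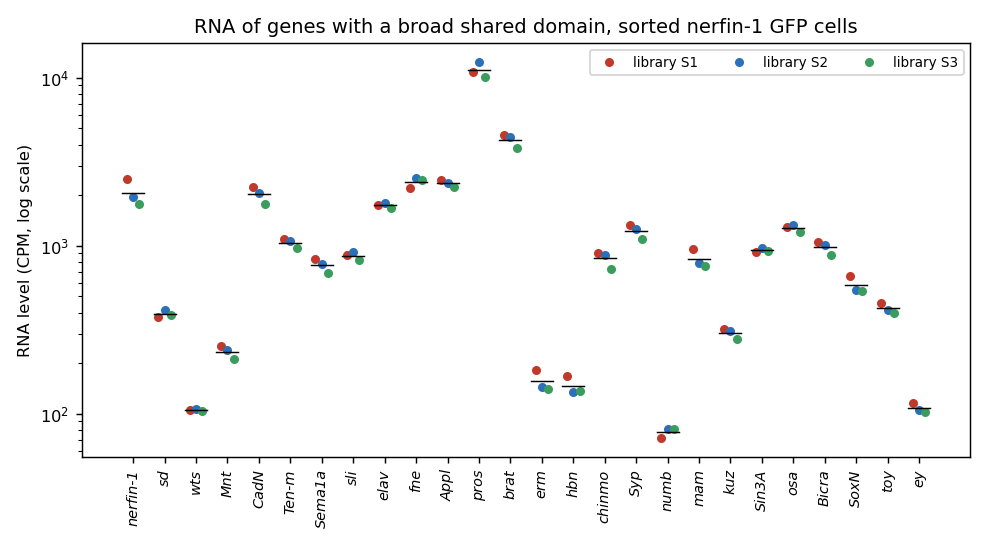
RNA level (CPM, log scale) of 26 named genes with a broad shared domain; each coloured point is 1 of the 3 RNA libraries and the black line is their mean. The libraries lie close together for most genes. Many of the genes are highest in S1, among them nerfin-1, erm and hbn but also CadN, chinmo and Sema1a.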

How the data were processed

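The submitters' processing notes name dm6 as the build, and Bowtie2, MACS2, bedtools, Subread, featureCounts and edgeR as tools, without saying which made which file or with what settings. Peak intervals were deposited by the authors (positions with no score) as 1 list each for Dam-Sd, Dam-Nerfin-1 and ATAC, as were raw read counts per gene for the 3 RNA libraries. No column was left unmapped (0). The use of Dam-only samples in peak calling is not stated in the notes, and no depth is known for DamID or ATAC.

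Rows of the DamID lists that repeat an interval for several genes were counted once. Starts are printed 1-based. Overlap meant at least 1 bp. Genes came from the RefSeq gene table of the same assembly (13922 protein-coding genes on chromosomes X, 2, 3 and 4), with a flank of 1000 bp; 299 carried identifiers that could not be looked up and count as not listed. Shares at the same lengths weight 10 equal length classes of all coding genes. CPM is counts per 1000000 listed counts. Overlap functions were tested on simulated intervals (1600 values, 0 wrong). Python 3.11.15, pandas 2.3.3, scipy 1.17.1, edgeR 4.0.16 and DESeq2 1.42.0 (size factors only) were used.

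Named domains were the 20 longest, those at the edges of the length rule, those with most or no ATAC peaks, those with several per gene, those far from genes and those at listed genes. Gene lists and members were chosen with earlier results of these data known; domains with under 10% cover, the microRNA genes, the domains with highest ATAC cover, examples of ATAC cover by part, of genes set apart in S1 and Myc were added after the values were seen. No promoter or domain sequence was used here.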

Additional observations from a re-analysis of the deposited data

How the results depend on the processing

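No result carried a test, so alternatives are read as changes in value. Of 28 alternatives, 24 kept the value within a set limit. This was a factor of 1.5 for counts, the 95% interval for shares of domains or genes, and 1 SD for cover and RNA level. For cover the SD was that over single domains (15.8 percentage points), a wide limit that says little about stability. Cover was 31.7% to 37.0% under other domain definitions and 42.7% at the centre base, against 34.5%. For RNA level the SD was that over libraries of the median log2 CPM (0.0705). The number of domains fell to 240 with a minimum of 4000 bp. The number of genes at the domains rose to 1111 with a flank of 5 kb. The share of these genes listed as expressed was 67.56% with no flank and 54.28% with 5 kb. The number of domains was 632 with a minimum of 2500 bp, 334 with at least 50% Nerfin-1 cover and 310 when Nerfin-1 peaks of 3000 bp or more were taken instead. With Sd peaks up to 500 bp apart joined, an alternative added after seeing the data, it was 486. The other alternatives added were the centre base of each domain and leaving out the domains at sd and nerfin-1, where 63.07% of genes were listed. The authors' own pairs in their deposited table gave 459 protein-coding genes, 434 of them also found by position. Leaving out each RNA library in turn gave a median log2 CPM of 8.40 to 8.47 over 54 named genes, against 8.43. No paired analysis was possible because the peak lists have 1 list per group and the RNA table has a single group. The lists carry no score, so no stricter peak threshold could be tried.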
